A study of Mus musculus with 45 samples.

Results

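Fn1, Tnc, Thbs1, Thbs2, Sparc, Postn, Fbln2, Fbln5, Fbn1 and Eln encode secreted glycoproteins of the extracellular matrix and components of elastic fibres. They were chosen by name, as 10 of the 35675 genes in the data, and 2 of them (Fn1 and Fbln2) had been noted as lower in cultures that received F/R/C. All 10 passed the filter on low counts, which kept 17325 genes. They are described here across all 15 groups of the study, and the difference between cultures with and without F/R/C is given without a test.

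Fibronectin and the tenascins form the provisional matrix on which migrating and proliferating cells adhere, while thrombospondins, SPARC and periostin are matricellular proteins that regulate adhesion and collagen assembly rather than bearing load. Elastic fibres consist of a core of cross-linked tropoelastin, the product of Eln, on a scaffold of fibrillin microfibrils, and fibulins link the core to the scaffold and to cells. In skeletal muscle, fibronectin and tenascin-C are known components of the niche of muscle stem cells, and much of the interstitial matrix is made by fibroblasts. Transforming growth factor β is a classical inducer of many of these genes in fibroblasts.

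The study reprogrammed mouse embryonic fibroblasts (MEFs) with a doxycycline-inducible MyoD, a transcription factor that imposes the muscle program. All groups carried the genotype Tg:Pax7-nGFP/C57BL6;DBA2, in which nuclear GFP reports the stem cell regulator Pax7, and each group had 3 libraries. MEFs were untreated or had received doxycycline for 2, 4, 6, 8 or 10 days, either alone (MyoD alone, labelled as myotubes) or together with F/R/C (labelled as muscle fibres and progenitor cells). F/R/C stands for 3 small molecules that the labels give by initials; they are known as forskolin, which activates adenylate cyclase, RepSox, which inhibits the TGF-β receptor kinase, and a GSK3 inhibitor. The other groups were bulk induced myogenic progenitor cells (iMPCs), sorted Pax7-nGFP+ iMPCs, bulk primary myoblasts and sorted Pax7-nGFP+ primary myoblasts. Bulk iMPCs were established clones that no longer need doxycycline, kept in medium with F/R/C, and their label gives 13 days of doxycycline with F/R/C. How many clones, embryos or animals stand behind the 3 libraries of a group is not given in the sources used here. Every p-value therefore rests on a spread between libraries that may be technical. In the main fit this spread was estimated over all 15 groups together, not within the groups compared alone.

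The reads assigned to genes numbered 15.6 M to 36.3 M per library (median 22.1 M), and the 3 bulk iMPC libraries (33.2 to 36.3 M) and 1 bulk myoblast library (35.5 M) were the deepest. The 8 muscle differentiation markers summed to 51.5 to 143 CPM (read counts scaled to the size of each library) in MEFs and to 7822 to 28160 CPM with MyoD alone on day 10. MEF replicate 1 stood apart, since it held muscle transcripts (Myog 6.90 CPM and Myh3 49.2 CPM) that were at 0 in the other MEF libraries. Pax7 stood at 612 ± 238 CPM (SD, n = 3) in sorted myoblasts, 306 ± 43.7 CPM in sorted iMPCs and 0.0931 ± 0.0912 CPM on day 10 of MyoD alone. In F/R/C cultures of the same day the mean was 63.6 ± 14.8 CPM. The summed level of 8 fibroblast markers was 6812 to 10307 CPM in MEFs, 1934 to 7546 CPM after 10 days of MyoD alone, 877 to 3764 CPM after 10 days of F/R/C and 1818 to 2654 CPM in bulk iMPCs. It was 586 to 1393 CPM in sorted iMPCs, 333 to 582 CPM in bulk myoblasts and 265 to 623 CPM in sorted myoblasts. The part of these cells in the results below was not tested, and in bulk libraries fewer cells of a type and less RNA per cell cannot be told apart. Macrophage, endothelial and adipocyte markers summed to at most 11.2, 9.30 and 15.3 CPM in any library. Epithelial markers reached 81.2 CPM in 1 bulk myoblast library.

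Levels of different genes were compared per length, in TPM (reads scaled to transcript length and library size). In MEFs, Sparc had 2776 TPM, Fn1 2443 TPM, Thbs1 2225 TPM, Tnc 1062 TPM and Fbln2 978 TPM on average. The elastic fibre genes were lower, at 267 TPM for Fbln5, 142 TPM for Fbn1 and 2.56 TPM for Eln, and Thbs2 (184 TPM) and Postn (35.4 TPM) lay between. After 10 days with F/R/C, Sparc had 1054 TPM, with Fn1 at 138 TPM, Thbs1 at 136 TPM and Fbln2 at 10.3 TPM. Postn, at 67.3 TPM, then exceeded Fbn1 (34.2 TPM), Thbs2 (34.8 TPM) and Fbln2.

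In 4 of the genes, a filter found 6 exons of the GENCODE M21 annotation (build GRCm38) that are included in some coding transcripts and skipped in others. It kept internal exons whose length preserves the reading frame, with a minimum share of the reads on each form in these data. The sequences of 4 of them are shown because the median share of reads on transcripts that include them differed between sets of libraries. The sets compared were MEFs with the time course, and iMPCs with myoblasts. Medians of the Postn exons differed too, but these are left out because their shares rested on as few as 4 reads. Since this difference chose the exons shown, their shares below are a description. In Fn1 the exons shown are the extra domains A and B, which each add a fibronectin type III repeat. Both are characteristic of fibronectin made by cells rather than of the plasma form. The exon of extra domain A lies at chr1:71603660-71603929 (minus strand, 270 bases), that of extra domain B at chr1:71613763-71614035 (minus strand, 273 bases), an optional type III repeat of Tnc at chr4:63984460-63984732 (minus strand, 273 bases), and an optional exon of Fbln2 at chr6:91259630-91259770 (plus strand, 141 bases). All were read from the GENCODE M21 transcripts, 5′ to 3′ on the coding strand. Capitals mark the first 6 and the last 6 bases of each exon.
Fn1 extra domain A: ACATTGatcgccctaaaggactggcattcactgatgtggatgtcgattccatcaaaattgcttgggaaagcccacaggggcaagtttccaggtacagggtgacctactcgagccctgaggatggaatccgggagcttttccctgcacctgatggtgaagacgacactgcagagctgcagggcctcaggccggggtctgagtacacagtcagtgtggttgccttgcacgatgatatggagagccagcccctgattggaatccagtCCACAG
Fn1 extra domain B: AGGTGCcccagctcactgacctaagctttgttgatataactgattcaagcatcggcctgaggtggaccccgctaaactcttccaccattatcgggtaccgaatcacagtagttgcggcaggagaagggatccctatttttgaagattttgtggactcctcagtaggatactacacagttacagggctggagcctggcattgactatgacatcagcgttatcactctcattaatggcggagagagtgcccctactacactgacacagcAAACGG
Tnc optional exon: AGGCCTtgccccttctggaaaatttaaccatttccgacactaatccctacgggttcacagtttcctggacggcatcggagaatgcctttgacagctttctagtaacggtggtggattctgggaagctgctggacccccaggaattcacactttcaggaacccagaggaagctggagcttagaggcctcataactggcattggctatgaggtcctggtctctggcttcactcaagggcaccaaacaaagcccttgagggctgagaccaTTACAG
Fbln2 optional exon: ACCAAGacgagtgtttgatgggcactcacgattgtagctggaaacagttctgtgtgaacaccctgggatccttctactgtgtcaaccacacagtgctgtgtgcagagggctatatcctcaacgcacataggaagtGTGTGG
Where the exon is skipped, its neighbours join directly. Each join is shown as 12 bases of the upstream exon in lower case and 12 bases of the downstream exon in capitals.
Fn1 without extra domain A: ctgcagtgaccaCCATTCCTGCGC
Fn1 without extra domain B: ccgttgtcccagCTGTCCCTCCTC
Tnc without the optional exon: cggctaccacagAAGCTGAACCGG
Fbln2 without the optional exon: tgtcctgtgaagACATCAATGAGT

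The share of Fn1 reads on transcripts with extra domain A separated the iMPC and myoblast groups from all others. It was 40.4 to 67.3% in the 33 libraries of MEFs and the time course (median 50.6%) and 71.0 to 96.8% in the 12 libraries of iMPCs and myoblasts (median 84.6%), so these ranges did not overlap. By group the share was 46.6 ± 6.17% in MEFs (SD, n = 3), 49.2 ± 4.91% with MyoD alone on day 10, 58.4 ± 9.79% with F/R/C on day 10 and 73.2 ± 2.23% in bulk iMPCs. Bulk and sorted myoblasts stood at 83.5 ± 3.44% and 84.7 ± 5.197%, and sorted iMPCs at 92.4 ± 5.66%. Whether the share goes with the level of Fn1 RNA was not tested. Group means of Fn1 were at least 9099 CPM in MEFs and with MyoD alone, and 773 to 3388 CPM in iMPCs and myoblasts. F/R/C cultures on day 10 had the lowest mean level of Fn1 (584 CPM). Bulk myoblast replicate 1, with 7038 CPM of Fn1, had a share of 87.0%.

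Extra domain B was also included more often in iMPCs and myoblasts, with some overlap. Its share was 17.2 to 56.8% in MEFs and the time course (median 28.7%) and 49.3 to 83.6% in iMPCs and myoblasts (median 71.3%). From day 2 to day 10, the group mean went from 32.04 ± 3.999% to 44.7 ± 13.9% in F/R/C cultures and from 38.4 ± 4.29% to 23.3 ± 4.75% in those of MyoD alone. Bulk myoblasts (75.9 ± 3.56%) lay above sorted myoblasts (63.8 ± 8.81%), unlike for extra domain A. In the annotation extra domain B occurs only in a transcript that also carries extra domain A, so these shares are not independent.

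For Tnc the optional repeat took 9.59 ± 1.62% of reads in MEFs, 13.7 ± 4.19% with MyoD alone on day 10, 28.9 ± 11.8% with F/R/C on day 10 and 30.8 ± 11.1% in bulk iMPCs. Myoblasts had 42.9 ± 11.9% in bulk and 51.9 ± 5.002% after sorting, and sorted iMPCs had 57.6 ± 2.66%. The ranges for Tnc overlapped, at 7.72 to 42.5% in MEFs and the time course and 22.5 to 59.4% in iMPCs and myoblasts. In Fbln2 the optional exon took 32.5 ± 4.31% in MEFs and 55.7 ± 10.5% with F/R/C on day 10, but 10.3 ± 7.86% in bulk iMPCs and 1.72 ± 2.98% in sorted iMPCs. Bulk myoblasts had 3.04 ± 5.26%, from as few as 13 reads in a library. Sorted myoblasts had 20.9 ± 13.7% (10.2 to 36.3%), overlapping MEFs and the time course (21.9 to 64.5%), and the only one of these libraries with more than 45 reads, replicate 2, had 16.1% of 1293 reads. The shares come from the authors' division of single-end reads among similar transcripts, and the sorted libraries were quantified with another fragment length setting. Among the unsorted libraries alone, the separation for extra domain A held. Shares for 2 exons of Postn rested on as few as 4 reads and are not described.

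**Figure D1:**
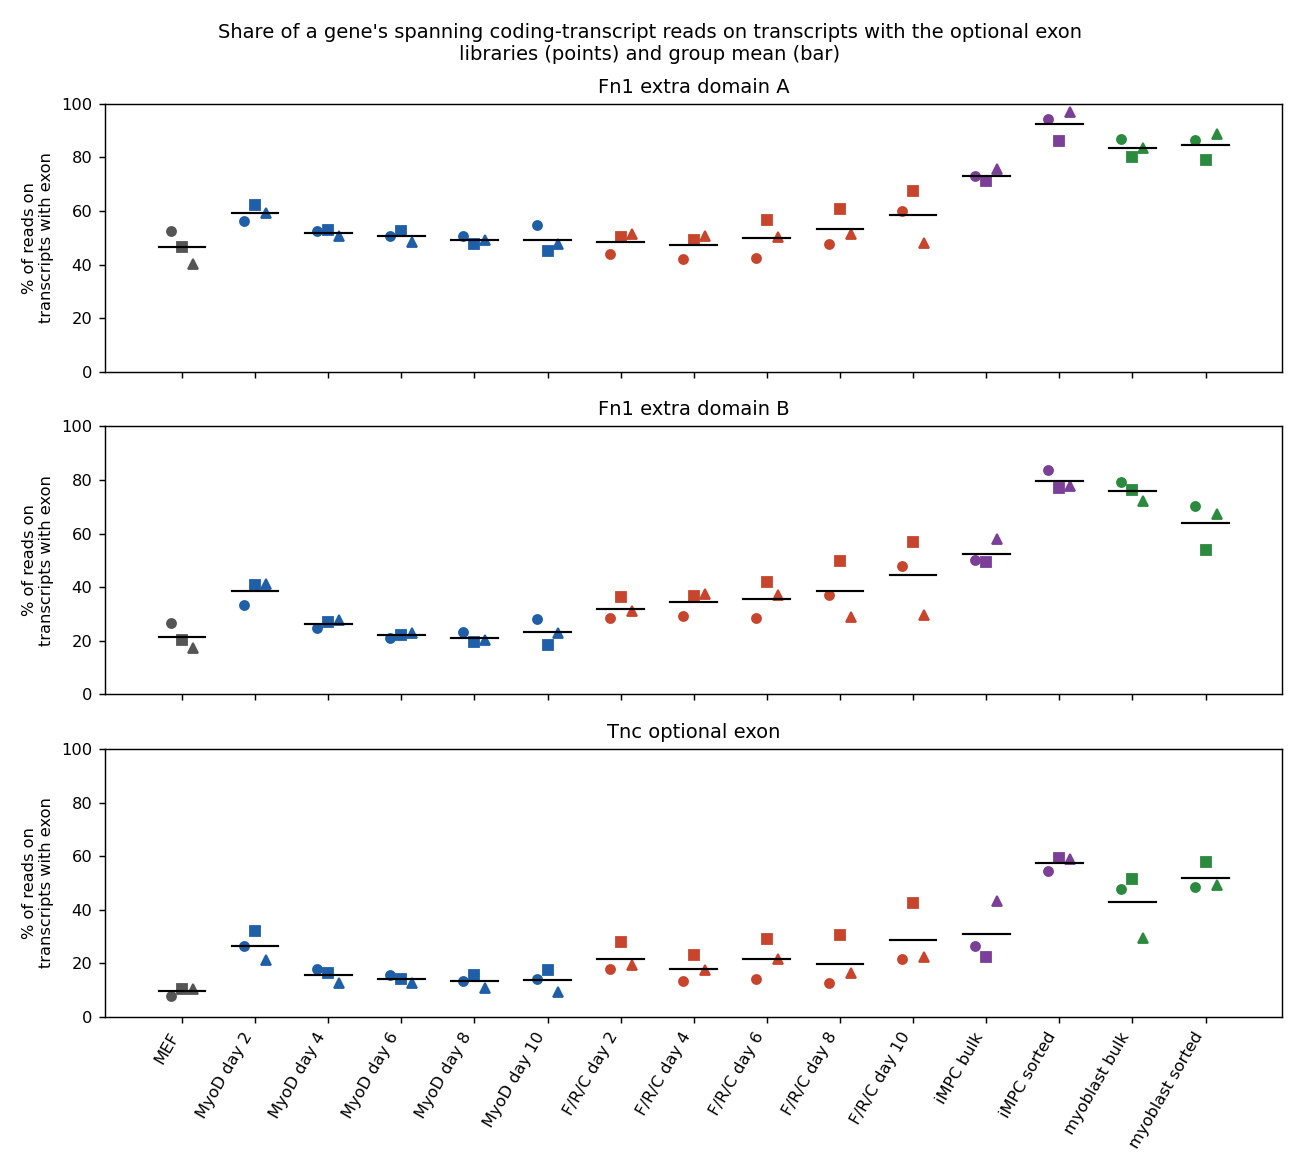
Share of reads (percent, estimated counts) on transcripts that include the optional exon, for extra domains A and B of Fn1 and the optional exon of Tnc, with 1 point per library, a bar at each group mean and groups along the horizontal axis. All 12 libraries of iMPCs and myoblasts lie at or above 71.0% for extra domain A, and all libraries of MEFs and the time course at or below 67.3%.

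Fn1 encodes fibronectin, the adhesive glycoprotein that integrins assemble into fibrils (chr1:71585520-71653200). In MEFs its replicates 1 to 3 had 5681, 10019.8 and 14748 CPM. With MyoD alone they had 11931, 7933 and 7433 CPM on day 2 and 19212, 11001 and 11586 CPM on day 10. The F/R/C libraries had 3454, 1802 and 1198 CPM on day 2 and 837, 323 and 590.2 CPM on day 10. On each of the 5 days all 3 F/R/C libraries lay below all 3 libraries with MyoD alone, and the mean was 4.23-fold lower on day 2, 11.9-fold on day 4, 15.6-fold on day 6 and 23.9-fold on day 10. Without F/R/C replicate 1, the log2 difference of Fn1 was -4.40 in place of -3.57 on day 4 and -4.83 in place of -3.97 on day 6. Fbln2 encodes fibulin-2, which binds fibronectin and elastic fibre proteins (chr6:91212455-91272540). Its mean was 265 CPM with F/R/C against 1576 CPM with MyoD alone on day 2, and 22.3 against 2924 CPM on day 10. The day 10 libraries with F/R/C had 25.8, 10.0 and 31.0 CPM, and those with MyoD alone 4031, 1922 and 2818 CPM. The mean was thus 5.95-fold lower on day 2 and 131-fold lower on day 10. These differences chose the genes and are given as a description.

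Of the 10 genes, 5 were lower without overlap on day 2, 4 on day 4, 4 on day 6, 5 on day 8 and 6 on day 10. Among all genes, 19.8%, 23.4%, 25.7%, 25% and 25.9% were lower without overlap on those days. Those higher without overlap numbered 0, 1, 0, 1 and 2, and among all genes 18%, 22.9%, 23.1%, 21.8% and 22% were higher in this way. Since the choice of genes rests in part on this contrast, nothing is read from the counts. Besides Fn1 and Fbln2, Thbs1 and Sparc were lower without overlap on all 5 days. The share of all genes that were lower in this way on all 5 days was not computed, so this too is only a description.

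Thbs1 encodes thrombospondin-1, a trimeric matricellular protein that can release TGF-β from its latent form (chr2:118111876-118127133). On day 2 its libraries had 3685, 2063 and 1775 CPM with F/R/C, and the group mean was 2.95-fold below that of MyoD alone. On day 10 they had 826, 209 and 346 CPM, against 12029, 5838 and 7659 CPM with MyoD alone, an 18.5-fold difference of means. Without F/R/C replicate 1 its log2 difference was -3.28 on day 4, -3.77 on day 6 and -4.29 on day 8. Sparc encodes a collagen-binding, counter-adhesive glycoprotein also called osteonectin (chr11:55394500-55423183). It moved in the same direction with a narrower range, from 1.29-fold lower on day 2 to 3.01-fold lower on day 10, when the F/R/C libraries had 1032, 681 and 1288 CPM and the others 3750.2, 2363 and 2923 CPM.

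Tnc and Fbln5 were both lower without overlap on day 10, and overlapped on some or all of the earlier days. Tnc encodes tenascin-C, a hexameric protein of developing and injured tissue (chr4:63959785-64047015). Its means were close on day 2, at 1903 CPM in F/R/C cultures beside 2236 CPM in the others, and the groups overlapped until day 8. On day 10 the F/R/C libraries had 553, 218 and 288 CPM, below the 2267, 812 and 3309.9 CPM of MyoD alone, and the mean was 6.04-fold lower. Fbln5 encodes fibulin-5, which tethers tropoelastin to microfibrils and to integrins (chr12:101746565-101819055). Its libraries did not overlap on days 2, 8 and 10 and overlapped on days 4 and 6, and its mean was 2.05-fold lower with F/R/C on day 2 and 19.5-fold lower on day 10, when the libraries had 22.4, 6.91 and 8.05 CPM against 518, 69.5 and 142 CPM. Without replicate 1 of MyoD alone, the highest of these, the day 10 log2 difference of Fbln5 was -3.09 in place of -4.29.

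Thbs2 and Fbn1 overlapped between the arms on most days. Thbs2 encodes thrombospondin-2, a collagen-organising relative of thrombospondin-1 (chr17:14665500-14694235). It was 1.39-fold higher with F/R/C on day 2, 1.80-fold higher without overlap on day 4 and 2.35-fold lower with overlap on day 10. Fbn1 encodes fibrillin-1, the backbone of microfibrils (chr2:125300594-125507993). Its libraries overlapped on every day, but within each replicate number the F/R/C library was the lower in 3 of 3 on all 5 days, with means 1.37-fold lower on day 2 and 2.84-fold lower on day 10.

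Postn and Eln ended higher with F/R/C. Postn encodes periostin, a fasciclin-domain protein that helps cross-link collagen (chr3:54361109-54391037). Its F/R/C libraries had 17.8, 11.7 and 24.1 CPM on day 2 and 98.5, 83.5 and 176 CPM on day 10, and the libraries with MyoD alone had 54.9, 23.4 and 18.5 CPM on day 10. The groups overlapped through day 6, and the F/R/C mean was 2.70-fold higher on day 8 and 3.70-fold higher on day 10. Eln encodes tropoelastin (chr5:134702593-134747323). Its libraries held only 5, 2 and 10 reads with F/R/C on day 2, and 214, 106 and 323 reads on day 10, or 8.51, 5.16 and 11.4 CPM. With MyoD alone on day 10 they held 21, 11 and 85 reads, and the F/R/C mean was 5.60-fold higher. Of the Eln reads on day 10 with F/R/C, 73.7% were assigned to the coding transcript, and on day 8 it was 41.1%.

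**Figure D2:**
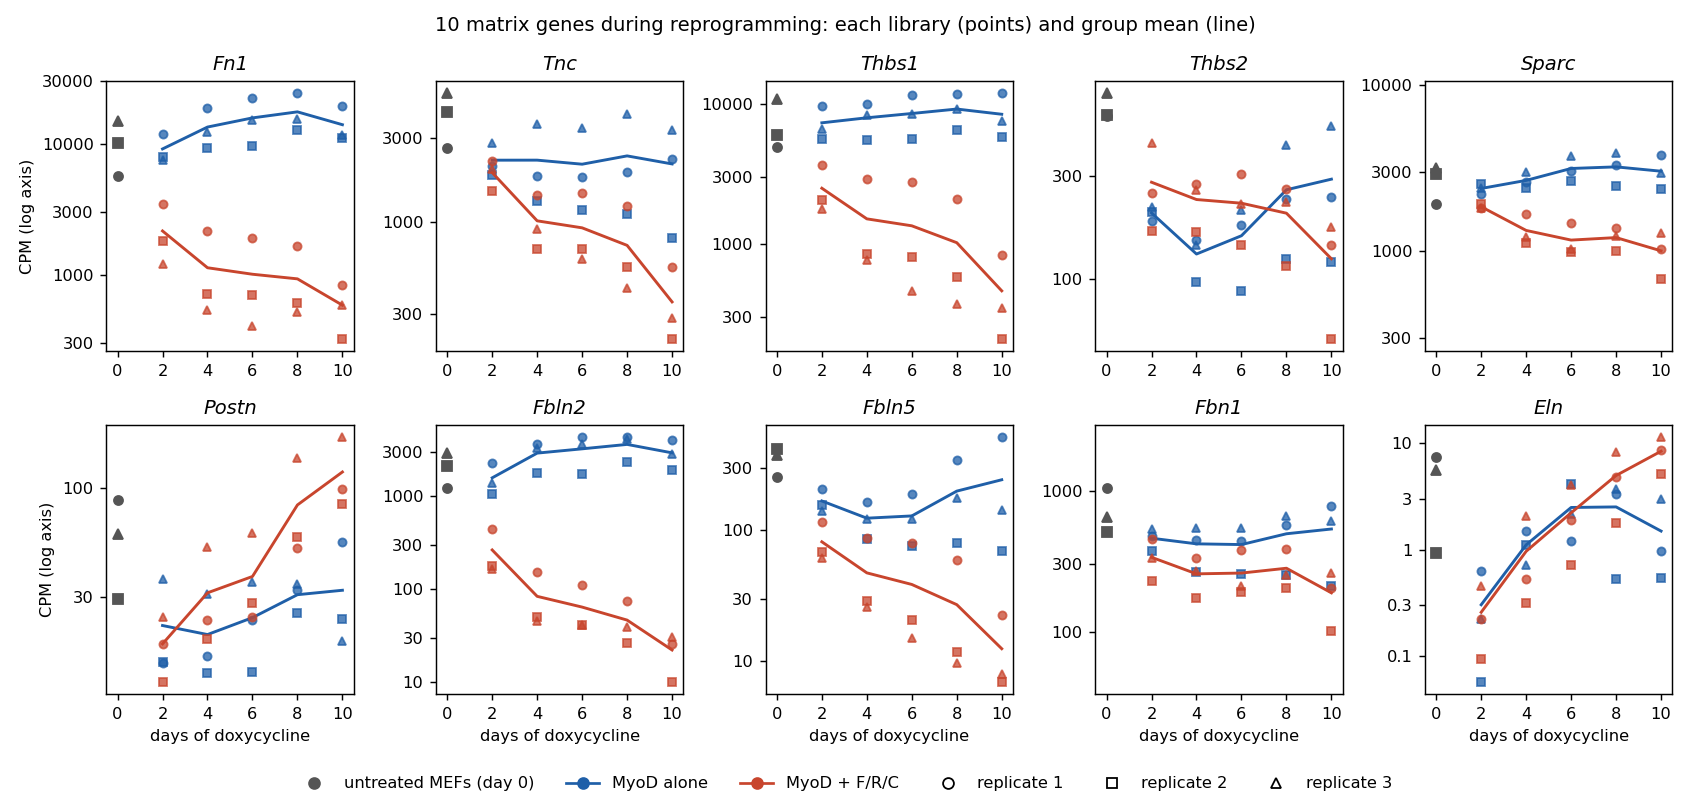
CPM (log axis) of the 10 genes against days of doxycycline, with untreated MEFs at day 0. Symbols are replicates, lines join group means, blue is MyoD alone and red is MyoD with F/R/C. Fn1, Thbs1, Sparc and Fbln2 are lower with F/R/C in every library of every day, and Postn and Eln end higher.

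On the log2 scale of the fit, the day 10 differences with their standard errors (SE) were -7.04 (1.05) for Fbln2, -4.58 (0.79) for Fn1, -4.29 (0.94) for Fbln5, -4.21 (0.83) for Thbs1 and -2.59 (0.60) for Tnc. They were -1.59 (0.32) for Sparc, -1.51 (0.51) for Fbn1, -1.23 (0.60) for Thbs2, 1.89 (0.95) for Postn and 2.46 (0.89) for Eln. The median of the 10 was -2.09, beside -0.07 over all genes tested. On day 2 it was -0.41 beside 0.00 over all genes. The value for Thbs2 rested on 1 library: without replicate 3 of MyoD alone it was -0.54.

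**Figure D3:**
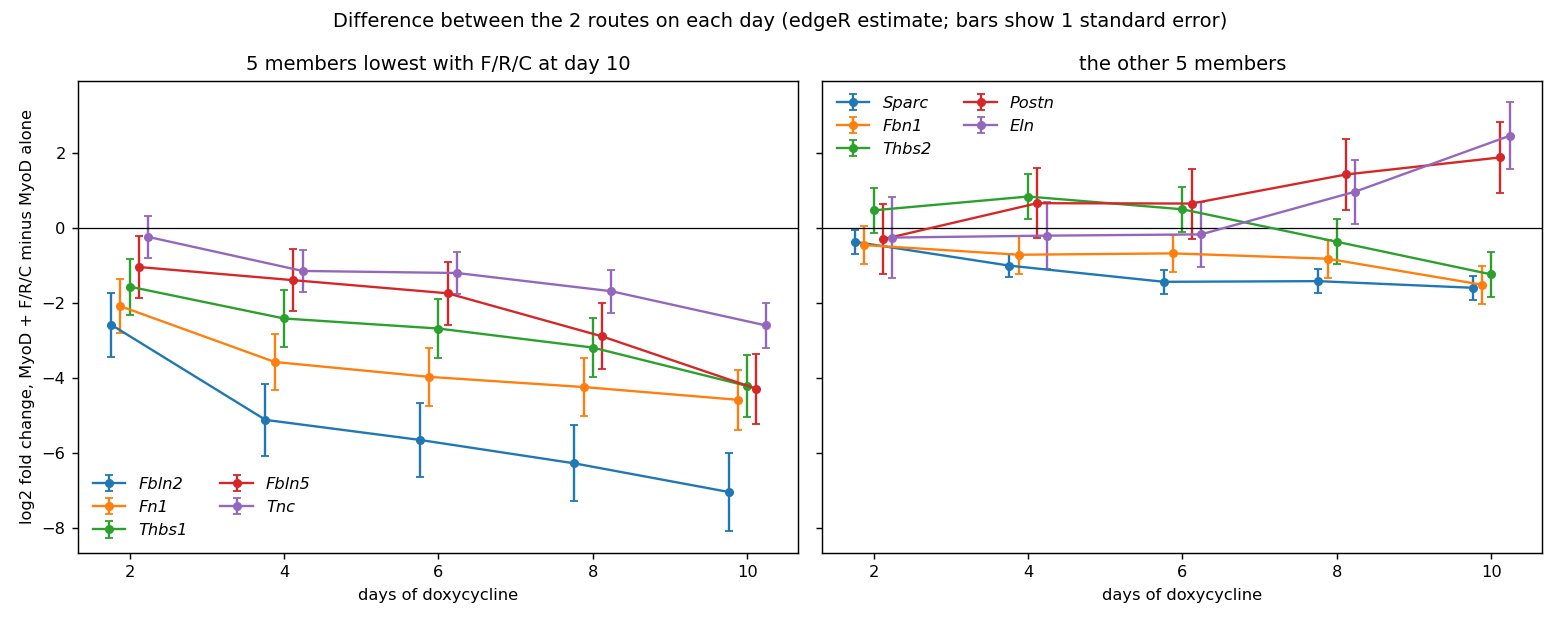
Log2 fold change of F/R/C minus MyoD alone for each of the 10 genes on each of the 5 days, as fitted by edgeR, with bars of 1 SE. The differences of Fn1, Fbln2, Thbs1, Fbln5, Tnc, Sparc and Fbn1 are more negative on day 10 than on day 2. Postn and Eln lie within 1 SE of 0 on day 2 and above 0 on day 10. Thbs2 goes from 0.48 on day 2 to -1.23 on day 10.

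Against MEFs, Eln and Thbs2 were lower after 2 days of MyoD alone and no gene was called after 10 days, whereas 6 genes were lower after 10 days with F/R/C. Tests here and below used edgeR's quasi-likelihood test with Benjamini-Hochberg adjustment over 17325 genes, and a gene was called at an adjusted p under 0.05 with a log2 fold change of at least 1 in size. Fn1 and Fbln2 were not tested where time-course libraries entered, which leaves 8 genes. After 2 days of MyoD alone, 2 of the 8 were called, both lower, where 22.4% of all genes were called (12.3% higher and 10.1% lower). Eln fell by 3.87 on the log2 scale (SE 1.00, adjusted p = 0.00307), from 167, 20 and 87 reads in MEFs to 13, 1 and 5 reads. Thbs2 fell by 1.63 (SE 0.61, adjusted p = 0.0353), from 574, 578 and 732 CPM to 186, 206 and 217 CPM without overlap. The Thbs2 call was lost when any 1 of the 6 libraries was left out (adjusted p from 0.0506 to 0.0875), and the Eln change was -4.95 without replicate 1 of MyoD alone and -1.45 on the log2(TPM + 1) scale, which understates changes of low genes. By day 10 of MyoD alone none of the 8 was called by edgeR or by DESeq2, and none had an unadjusted p under 0.05, while 18.9% of all genes were called (14.3% higher and 4.64% lower). Without replicate 3 of MyoD alone on day 10, Thbs2 was called lower (-1.80, adjusted p = 0.0435).

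With F/R/C on day 2, Eln was the only 1 of the 8 called (-4.12, SE 1.02, adjusted p = 0.00211), beside 20.4% of all genes (11.5% higher and 8.93% lower). Its change was -4.80 without replicate 3 of F/R/C and -1.43 on the log2(TPM + 1) scale. Fbln5 was at 116, 68.3 and 61.0 CPM, below the 255, 422 and 374 CPM of MEFs, but missed the threshold (-2.10, SE 0.85, adjusted p = 0.0543) in edgeR's test. Its call differed between tools: DESeq2 gave an adjusted p of 0.035. With only these groups in the fit, 7 of the 8 were called, all lower.

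After 10 days with F/R/C, 6 of the 8 were lower than in MEFs and none was higher, where 34.8% of all genes were called (19% higher and 15.8% lower). The log2 fold change was -4.81 for Fbln5 (SE 0.96, adjusted p = 0.000103), -3.99 for Thbs1 (SE 0.82, adjusted p = 0.000151) and -3.52 for Tnc (SE 0.62, adjusted p = 2.04e-05). It was -2.34 for Thbs2 (SE 0.63, adjusted p = 0.0022), -1.97 for Fbn1 (SE 0.52, adjusted p = 0.00182) and -1.40 for Sparc (SE 0.32, adjusted p = 0.000419). Postn (1.02, SE 0.93, adjusted p = 0.369) and Eln (0.86, SE 0.84, adjusted p = 0.401) were not called. As a description, Fbln2 differed by -6.55 and Fn1 by -4.12. The 6 were called with every library left out in turn, and without replicate 1 of F/R/C the changes of Thbs1 and Fbln5 were -4.72 and -5.55. The fibroblast markers also moved: 6 of 8 were called lower, and Col1a1 went from 3987 ± 723 CPM to 929 ± 771 CPM.

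Between day 2 and day 10 of F/R/C, Tnc, Fbln5 and Thbs1 fell while Eln and Postn rose. These were 5 of the 8 genes tested, where 16% of all genes were called (9.85% higher and 6.18% lower). Tnc (-2.43 on the log2 scale, SE 0.59, adjusted p = 0.00298), Fbln5 (-2.71, SE 0.88, adjusted p = 0.0207) and Thbs1 (-2.45, SE 0.77, adjusted p = 0.0173) were the genes that fell. Eln rose by 4.98 (SE 1.04, adjusted p = 0.000761) and Postn by 2.74 (SE 0.99, adjusted p = 0.0363). Sparc was lower on day 10 by less than the minimum change (-0.88, SE 0.31, adjusted p = 0.0339), and passed it without day 10 replicate 3 (-1.11). The calls of Postn, Thbs1 and Fbln5 were each lost when any 1 of several libraries was left out, with values of the same sign. Postn was lost without any 1 of the day 2 libraries or without day 10 replicate 3 (adjusted p from 0.0639 to 0.121), while Thbs1 and Fbln5 were lost without day 2 replicate 1 or without day 10 replicate 2 or 3 (adjusted p from 0.0678 to 0.0926). Without day 10 replicate 1 they were -3.18 and -3.45, and Eln was 5.67 without day 2 replicate 3 and 2.192 on the log2(TPM + 1) scale. With MyoD alone, none of the 8 was called by edgeR or by DESeq2 between day 2 and day 10, 1 had an unadjusted p under 0.05, and 6.26% of all genes were called (4.5% higher and 1.76% lower). The closest was Eln, at 13, 1 and 5 reads on day 2 and 21, 11 and 85 reads on day 10 (2.27, SE 0.98, adjusted p = 0.135). The difference between the arms in this change was not tested, since it is part of the contrast that chose the genes.

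**Figure D4:**
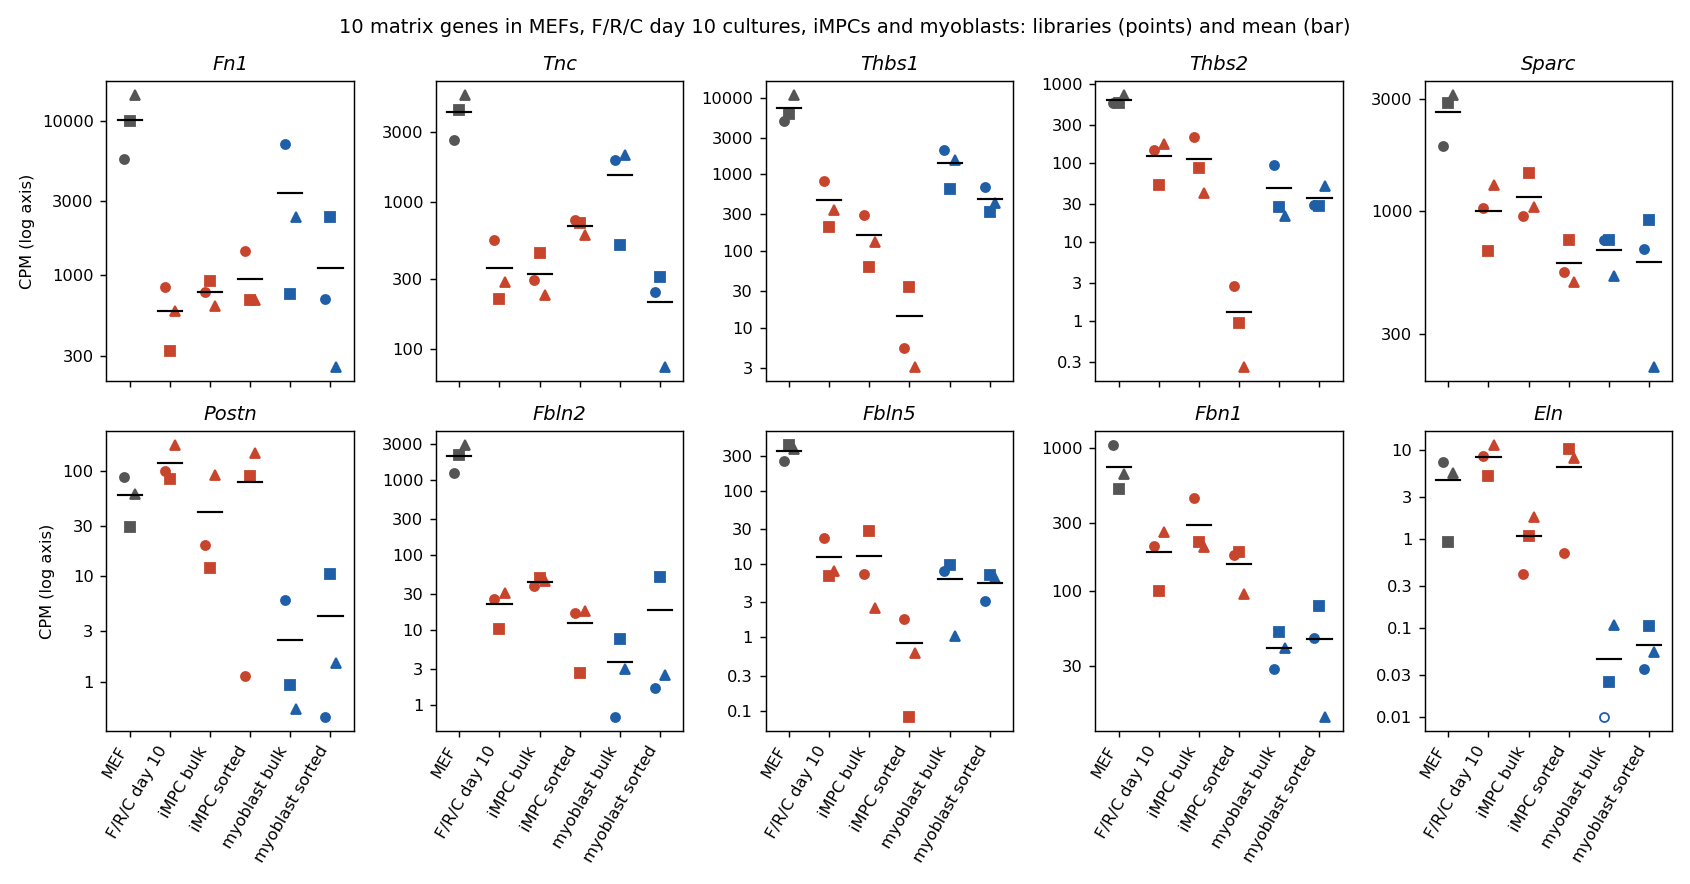
CPM (log axis) of the 10 genes in MEFs, F/R/C cultures on day 10, bulk and sorted iMPCs and bulk and sorted myoblasts. Points are libraries (circle, square and triangle for replicates 1 to 3) and bars are means, and the open point for Eln is a bulk myoblast library with 0 reads drawn at 0.01. Fbn1, Postn and Eln have lower means in both myoblast groups than in all others, and Thbs1 and Thbs2 are lowest in sorted iMPCs.

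Bulk iMPCs had less of nearly all of the 10 genes than MEFs. Since bulk iMPCs were kept with F/R/C, under which Fn1 and Fbln2 had been noted as lower, both are given as a description. With both in the count, 9 of 10 were called lower and none higher, beside 35.5% of all genes called (19.2% higher and 16.2% lower). The median log2 fold change was -3.05 over the 10 and 0.08 over all genes. Since Fn1 and Fbln2 enter both the count and this median, nothing is read from either. Fbln2 went from 1225, 2131 and 2906 CPM in MEFs to 38.2, 48.4 and 44.7 CPM (-5.58, SE 0.98). Thbs1 went from 4938, 6028 and 10929 CPM to 296, 62.0 and 132 CPM (-5.48, SE 0.89, adjusted p = 5.14e-06). Fn1 libraries had 783, 910.1 and 627 CPM (-3.71, SE 0.76). No library of bulk iMPCs reached the MEF range for these genes.

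Tnc (-3.64, SE 0.63, adjusted p = 1.3e-05), Fbln5 (-4.79, SE 0.96, adjusted p = 9.91e-05), Thbs2 (-2.47, SE 0.63, adjusted p = 0.00135) and Sparc (-1.19, SE 0.32, adjusted p = 0.00188) fell as well. So did Fbn1 (-1.35, SE 0.51, adjusted p = 0.0246) and Eln (-2.09, SE 0.88, adjusted p = 0.0449), whereas Postn, at 19.9, 12.01 and 90.7 CPM, was not called (-0.53, SE 0.93, adjusted p = 0.651). The Fbn1 call was lost without MEF replicate 1 or iMPC replicate 2 or 3 (adjusted p from 0.0882 to 0.124), and that of Eln without MEF replicate 1 or 3 or iMPC replicate 1 or 2 (0.0907 to 0.17), without the filter (0.0782), or with only the groups compared (0.0746), and on the log2(TPM + 1) scale its change was -1.03. Without iMPC replicate 1 Thbs1 was -6.23 and Thbs2 -3.28, and without replicate 2 Fbln5 was -6.18. The bulk iMPC libraries were deeper than every MEF library, so depth and group cannot be told apart in this comparison.

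Between bulk iMPCs and F/R/C cultures on day 10, Eln alone of the 8 genes tested was called, where 9.57% of all genes were called (3.33% higher and 6.24% lower). It was lower in iMPCs, at 15, 38 and 65 reads against 214, 106 and 323 reads (-2.95, SE 0.90, adjusted p = 0.0187), and the call was lost without iMPC replicate 1 (adjusted p = 0.09) or 2 (0.0604). On the log2(TPM + 1) scale it was -1.79. A difference that misses the threshold does not show that levels were alike: Thbs1 was at -1.50 (SE 0.75) and Postn at -1.55 (SE 0.94).

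Against bulk primary myoblasts, bulk iMPCs had more of the elastic fibre genes Fbn1 and Eln, more Fbln2 and Postn, and less Fn1, Tnc and Thbs1. These 7 of 10 were called (4 higher, 3 lower), beside 19.6% of all genes (10.9% higher and 8.7% lower). Fn1 and Fbln2 are in this count, but are again given as a description, since bulk iMPCs were kept with F/R/C. Nothing is therefore read from the count. Fbn1 had 451, 219 and 203 CPM in iMPCs and 28.4, 51.7 and 39.5 CPM in myoblasts, without overlap (2.87, SE 0.54, adjusted p = 0.000132). Fbln2 was at most 7.41 CPM in myoblasts (3.54, SE 0.90). Postn was at 5.97, 0.927 and 0.546 CPM in myoblasts (4.09, SE 1.07, adjusted p = 0.00375).

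Eln had 118 reads in the 3 iMPC libraries together and 4 in the 3 myoblast libraries (0, 1 and 3). The ratio of the pooled levels was 24.2, with an exact (Clopper-Pearson) 95% interval of 9.22 to 90.4 that covers counting error only (edgeR adjusted p = 0.0045, higher in 3 of 3 iMPC libraries). Thbs1 had 296, 62.0 and 132 CPM in iMPCs and 2057, 653 and 1553 CPM in myoblasts (-3.12, SE 0.79, adjusted p = 0.0028). Tnc was lower in iMPCs as well (-2.22, SE 0.59, adjusted p = 0.00419), at 232 to 449 CPM against 509 to 2092 CPM. Fn1 varied widely among the myoblast libraries, at 7038, 752 and 2375 CPM, and its difference was -2.13 (SE 0.71). It did not pass the threshold without myoblast replicate 1 (-1.02) or without iMPC replicate 1 or 3.

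Several of these values rested on single libraries or on the fit. Without myoblast replicate 1 Thbs2 became called (adjusted p = 0.0166) and Postn was 5.75; without myoblast replicate 2 Fbln2 was 4.57; without myoblast replicate 3 Eln was 5.68 as fitted; without iMPC replicate 1 Thbs1 was -3.87 and without replicate 3 Postn was 2.73. With only these groups in the fit, the calls of Fn1, Postn and Tnc were lost (adjusted p 0.121, 0.0835 and 0.0605), and with TPM values those of Fn1 and Eln. On the log2(TPM + 1) scale Postn was 2.99 and Fbln2 2.93. Other markers differed beside these genes, and their part was not tested. The bulk myoblast libraries also differed among themselves, with muscle differentiation markers summing to 1009, 14779 and 28664 CPM. In bulk iMPCs this sum was 16526 to 22141 CPM. Of 5 smooth muscle markers 4 were called higher (median log2 fold change 6.17, summed level 161 to 205 CPM against 56.9 to 149.9 CPM), and all 8 fibroblast markers were called higher in bulk iMPCs, with Col1a1 at 247 ± 18.9 CPM against 0.923 ± 0.980 CPM.

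Among sorted Pax7-nGFP+ cells, iMPCs again had more Fbn1, Postn and Eln and less Thbs1, whereas Tnc was higher rather than lower than in myoblasts. Of the 10 genes, 7 were called (4 higher in iMPCs, 3 lower), where 30% of all genes were called (12.4% higher and 17.6% lower). Fn1 and Fbln2 are given as a description here too, and neither is among the 7. Fbn1 had 179, 187 and 95.04 CPM in sorted iMPCs and 46.6, 78.6 and 13.0 CPM in sorted myoblasts (1.74, SE 0.51, adjusted p = 0.00594). Postn had 1.13, 88.3 and 147 CPM against 0.459, 10.6 and 1.52 CPM, with overlap (4.21, SE 1.06, adjusted p = 0.00153). Eln had 432 reads in iMPCs and 5 in myoblasts, a ratio of pooled levels of 96.5 with an exact 95% interval of 41.05 to 299 (edgeR adjusted p = 3.98e-05, higher in 3 of 3 libraries). Tnc was higher in sorted iMPCs, at 749, 716 and 591 CPM against 245, 311 and 75.2 CPM (1.70, SE 0.58, adjusted p = 0.0157).

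Both thrombospondins were lower in sorted iMPCs. Thbs1 had 5.50, 34.2 and 3.05 CPM in sorted iMPCs and 679, 319 and 427 CPM in sorted myoblasts (-5.05, SE 0.87, adjusted p = 1.77e-05). Thbs2 had 63, 23 and 5 reads, or 2.73, 0.929 and 0.258 CPM, against 29.0, 28.5 and 50.4 CPM (-4.76, SE 0.74, adjusted p = 3.74e-06). Every sorted iMPC library lay below every sorted myoblast library for both. Fbln5 was lower too (-2.73, SE 1.01, adjusted p = 0.0263), from 41, 2 and 12 reads in iMPCs. Sparc (-0.02, SE 0.31, adjusted p = 0.982) was not called. As a description, Fn1 differed by -0.24 (SE 0.68) and Fbln2 by -0.57 (SE 0.82).

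The Fbln2 value rested on sorted myoblast replicate 2, which had 50.6 CPM where the others had 1.66 and 2.5 CPM, and without it Fbln2 was higher in iMPCs (2.58). Without that library Postn was 6.38 and Fbn1 2.36. The Fbln5 call was lost without iMPC replicate 2 or 3 or myoblast replicate 2 or 3 (adjusted p from 0.0548 to 0.113), and those of Tnc and Fbn1 without myoblast replicate 3 (0.101 and 0.051). Without iMPC replicate 1, Thbs2 was -5.85 and Fbln5 -4.05; without replicate 2, Thbs1 was -6.79; without replicate 3, Postn was 3.39. With only these groups in the fit, the calls of Postn, Fbln5 and Fbn1 were lost (adjusted p 0.101, 0.0644 and 0.0729), and with TPM values that of Fbln5 was lost (0.0764). On the log2(TPM + 1) scale Postn was 2.86, Eln 1.38 and Thbs2 -2.98. Muscle differentiation markers also differed, with 8 of 8 called lower in sorted iMPCs (summed level 726 to 1367 CPM against 4062 to 13984 CPM). Of 8 fibroblast markers, only 2 were called higher in sorted iMPCs and none lower (median log2 fold change 2.21). Among the 8, Pdgfrb was at 103 ± 43.9 CPM in sorted iMPCs and 5.86 ± 9.43 CPM in sorted myoblasts.

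**Figure D5:**
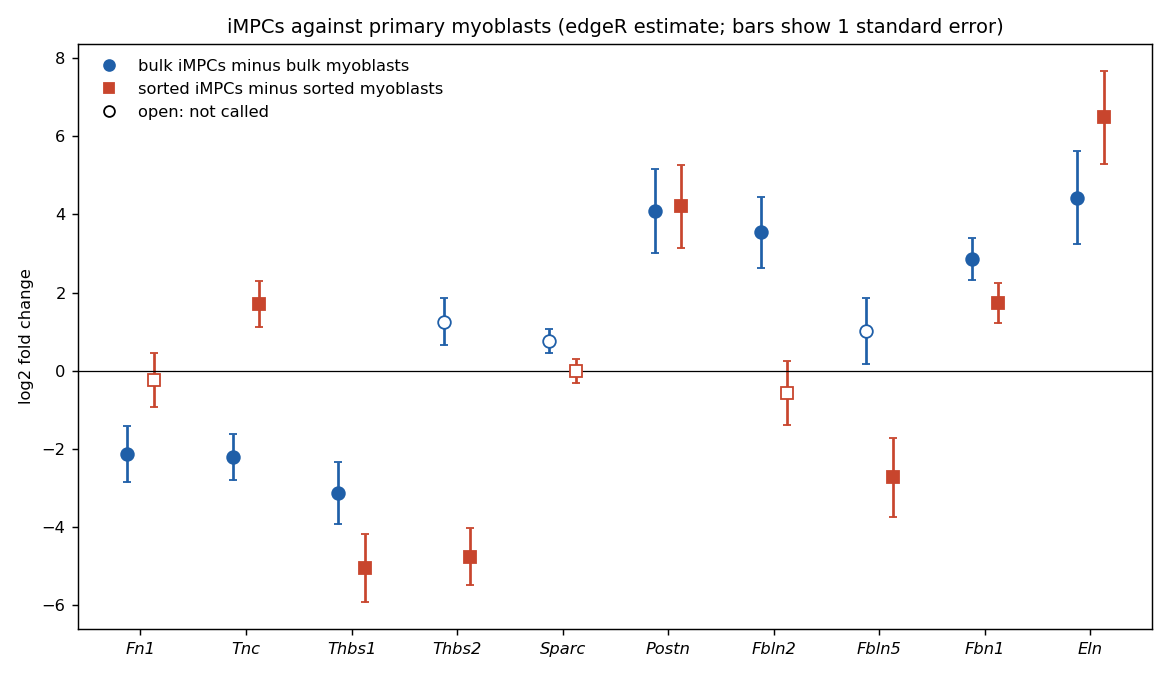
Log2 fold change (edgeR, bars of 1 SE) of iMPCs minus primary myoblasts for the 10 genes, in bulk (circles) and in sorted Pax7-nGFP+ cells (squares), with open symbols for values that were not called. Thbs1 is lower and Postn, Fbn1 and Eln are higher in iMPCs in both comparisons, while Tnc is lower in bulk and higher in sorted cells.

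Sorted iMPCs had less Thbs1, Thbs2 and Fbln5 than bulk iMPCs. The bulk libraries were deeper (33.2 to 36.3 M reads against 17.8 to 22.3 M), and the sorted ones were quantified with another fragment length setting. Depth, this setting and sorting therefore cannot be told apart here. Of the 10 genes, 4 were called between sorted and bulk iMPCs, where 30.3% of all genes were called (9.88% higher and 20.5% lower). Thbs2 fell from 211, 86.7 and 41.6 CPM in bulk to at most 2.73 CPM (-6.41, SE 0.78, adjusted p = 1.46e-07), Fbln5 from 7.20, 28.4 and 2.47 CPM to at most 1.78 CPM (-3.94, SE 1.02, adjusted p = 0.00198) and Thbs1 from 296, 62.0 and 132 CPM to at most 34.2 CPM (-3.51, SE 0.81, adjusted p = 0.000647). Eln was higher in sorted iMPCs (2.57, SE 0.89, adjusted p = 0.0174), but its replicate 1 had 0.693 CPM and lay within the bulk range. That call was lost without sorted replicate 2 (adjusted p = 0.0793), without bulk replicate 1 (0.0803), with only the groups compared (0.0773) and with TPM values (0.116), while Tnc was called higher with only these groups and Fbln2 lower with TPM values. Without bulk replicate 1 Thbs1 was -2.75 and Thbs2 -5.59, without bulk replicate 2 Fbln5 was -2.55, without sorted replicate 1 Thbs2 was -7.51 and Fbln5 -5.25, and without sorted replicate 2 Thbs1 was -5.25. On the log2(TPM + 1) scale Thbs2 was -4.34 and Fbln5 -2.23. Sparc fell short of the minimum change (-0.94, SE 0.31, adjusted p = 0.0137) and passed it without sorted replicate 2 (-1.13) or bulk replicate 1 (-1.04) or 3 (-1.004). Markers moved beside them, and their part was not tested. Called lower were 7 of 8 muscle differentiation markers (median log2 fold change -4.35), 3 of 5 smooth muscle markers (median -2.39) and 5 of 8 fibroblast markers, with Col1a1 at 5.08 ± 6.15 CPM in sorted against 247 ± 18.9 CPM in bulk iMPCs.

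Between sorted and bulk myoblasts, Tnc was the only gene called, 1 of 10 where 6.23% of all genes were called (2.2% higher and 4.03% lower). In edgeR's test 4 of the 10 had an unadjusted p under 0.05, among them Thbs1 (-1.58, SE 0.75, adjusted p = 0.168). Muscle differentiation markers summed to 1009 to 28664 CPM in bulk and 4062 to 13984 CPM in sorted myoblasts, and their part was not tested. Tnc had 1933, 509 and 2092 CPM in bulk and 245, 311 and 75.2 CPM after sorting, without overlap (-2.84, SE 0.60, adjusted p = 0.00239), and with only these groups in the fit it was not called (adjusted p = 0.431). Fbln2 was called higher in sorted myoblasts by DESeq2 (adjusted p = 0.0266), and by edgeR without bulk replicate 2 (3.31) or sorted replicate 1 (2.83) or 3 (2.82), beside 2.29 (SE 0.86, adjusted p = 0.0786) with all libraries. Fn1 was called lower without bulk replicate 2 (-2.08) or sorted replicate 2 (-2.82) and with TPM values (adjusted p = 0.0482), beside -1.61 (SE 0.70, adjusted p = 0.132). Eln was at or under 3 reads in every myoblast library and no fold is given. All sorted libraries were also quantified with another fragment length setting, so this setting and sorting cannot be told apart.

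Over all 15 groups, Fbln2 spanned the widest range of group means, 980-fold between MyoD alone on day 8 and bulk myoblasts. Thbs1 spanned 650.4-fold, Thbs2 481-fold, Fbln5 424-fold and Eln 187-fold, and Sparc spanned only 5.31-fold. When groups were ranked by mean, most neighbours in the order overlapped. For Fn1 the libraries of 1 of 14 neighbouring pairs did not overlap (MyoD alone on day 2 above bulk myoblasts), for Sparc 2, for Fbln2 3 and for Eln none. Fn1, Sparc, Thbs1 and Fbln2 were highest with MyoD alone on day 8, Tnc, Thbs2, Fbln5 and Fbn1 in MEFs, and Postn and Eln with F/R/C on day 10. The lowest means were those of bulk myoblasts for Postn, Fbln2, Fbn1 and Eln, of sorted iMPCs for Sparc, Thbs1, Thbs2 and Fbln5, of sorted myoblasts for Tnc and of F/R/C on day 10 for Fn1.

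Group means of several of these genes varied together. Across the 15 groups, Pearson's r of log2 CPM was 0.979 between Sparc and Fbln2, 0.928 between Sparc and Fbln5, 0.926 between Thbs1 and Fbln5 and 0.903 between Fbln2 and Fbln5, and these were the 4 of 45 pairs at or above 0.9. Postn and Eln were most like each other (r = 0.872), and their values with Fn1 were -0.01 and -0.03. The 10 time-course groups are successive days of the same treatments, so the points are not independent and these values are descriptions. Among all other genes, the 3 most like Fn1 in this measure were Cttnbp2nl (r = 0.985), Zdhhc2 (0.982) and Mgat5 (0.981). Those most like Sparc were Papss2 (0.988), Tll1 (0.982) and Nipal1 (0.976), and Papss2 was also second for Fbln2 (0.979). For Fbn1 they were the homeobox genes Hoxd13 (0.985), Hoxb7 (0.976) and Hoxb8 (0.976). Postn was closest to Trib2 (0.967), Prr5l (0.944) and Pdgfrb (0.938), and Eln to the sterol pathway genes Fdps (0.933) and Cyp51 (0.922) and to Dhrs3 (0.927).

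In several genes the same replicate number was highest on every day of an arm. Fn1, Thbs1 and Fbln5 were highest in replicate 1 on all 5 days both with MyoD alone and with F/R/C. Eln and Postn were highest in replicate 3 on all 5 days with F/R/C. Tnc was highest in replicate 3 on all 5 days with MyoD alone and in replicate 1 on all 5 days with F/R/C. Fbln2 was highest in replicate 1 on all 5 days with MyoD alone and on 4 of 5 days with F/R/C. In other cases the highest number changed between days. With MyoD alone, Sparc was highest in replicate 3 on 3 of 5 days and Eln in replicates 1 and 3 on 2 days each. With F/R/C, Thbs2 was highest in replicate 1 on 3 days and in replicate 3 on 2.

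The partners of these genes in elastic fibres were mostly lower with F/R/C. Of 18 other genes of microfibrils, latent TGF-β binding and lysyl oxidase cross-linking, 11 were called lower and 2 higher with F/R/C than with MyoD alone on day 10, where 23.3% of all genes were called (9.91% higher and 13.4% lower). Their median log2 fold change was -1.60, beside -0.07 over all genes. Loxl4, a lysyl oxidase, was at 2.46 ± 1.22 CPM against 48.8 ± 12.2 CPM (-4.29, SE 0.60, adjusted p = 2.95e-06), and Ltbp2, a latent TGF-β binding protein homologue of microfibrils, at 14.5 ± 9.97 against 238 ± 147 CPM (-4.04, SE 0.96, adjusted p = 0.00129). Fbn2, the fibrillin of embryonic microfibrils, was the opposite of Fbn1, at 90.8 ± 20.3 against 13.7 ± 1.94 CPM (2.73, SE 0.47, adjusted p = 3.72e-05). Fbln1 was also higher (1.93, SE 0.53, adjusted p = 0.00453).

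Against MEFs, 13 of the 18 were lower in bulk iMPCs and none was higher, beside 35.5% of all genes called, with Loxl3 at 22.2 ± 5.91 against 412 ± 66.5 CPM (-4.21, SE 0.61, adjusted p = 9.3e-07). Against bulk myoblasts, 6 were higher and 2 lower in bulk iMPCs (10.9% and 8.7% of all genes). Efemp1, which encodes a fibulin, had 103 ± 74.4 CPM against 1.04 ± 0.493 CPM (6.62, SE 0.81, adjusted p = 5.35e-07). In sorted cells 7 were higher and 5 lower in iMPCs (12.4% and 17.6% of all genes). Fbn2 stood at 132 ± 36.0 CPM in sorted iMPCs and 0.419 ± 0.295 CPM in sorted myoblasts (8.21, SE 0.63, adjusted p = 2.32e-11), in the same direction as Fbn1, while Ltbp1 was lower (-2.64, SE 0.49, adjusted p = 5.22e-05).

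Other matrix glycoproteins were divided. Of 23, 8 were higher and 8 lower with F/R/C than with MyoD alone on day 10 (9.91% and 13.4% of all genes), with a median log2 fold change of -0.04. Thbs4, a pentameric thrombospondin of muscle and tendon, was higher, at 39.3 ± 34.0 against 0.752 ± 0.577 CPM (5.71, SE 0.88, adjusted p = 1.05e-05), opposite to Thbs1. Spon1 had 3581 reads in the 3 F/R/C libraries and 10 with MyoD alone. Ccn2, also called Ctgf and a classical TGF-β target, was lower, at 55.2 ± 36.7 against 1105 ± 703 CPM (-4.32, SE 0.97, adjusted p = 0.0007), as was Smoc2 (-3.18, SE 0.90, adjusted p = 0.0052). Against bulk myoblasts 10 of the 23 were higher in bulk iMPCs and none lower (10.9% and 8.7% of all genes), with Tgfbi at 122 ± 87.5 against 0.362 ± 0.365 CPM (8.24, SE 1.23, adjusted p = 7.37e-06). In the comparison with MEFs 6 were higher and 6 lower in bulk iMPCs (19.2% and 16.2% of all genes), and Nid1, a basement membrane linker, was lower, at 484 ± 226 against 4145 ± 1334 CPM (-3.10, SE 0.64, adjusted p = 0.000134).

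Of 14 receptors for these proteins, 7 were lower and 1 higher with F/R/C on day 10 (13.4% and 9.91% of all genes). Lrp1, an endocytic receptor for thrombospondins, was lower (-2.94, SE 0.53, adjusted p = 6.66e-05), and Itgav, an integrin subunit of fibronectin receptors, at 59.1 ± 13.0 against 419 ± 121 CPM (-2.83, SE 0.31, adjusted p = 1.11e-07). Itga4, another fibronectin receptor subunit, was higher, at 522 ± 64.2 against 88.2 ± 43.4 CPM (2.56, SE 0.57, adjusted p = 0.000613). Itga4 was also higher in sorted iMPCs than in sorted myoblasts, at 129 ± 66.2 against 9.15 ± 5.08 CPM (3.82, SE 0.60, adjusted p = 5.1e-06), as was Itga9, a subunit of the tenascin-C receptor, at 27.3 ± 10.1 against 1.48 ± 0.162 CPM (4.20, SE 0.60, adjusted p = 1.02e-06). In these sorted cells 3 of the 14 receptors were higher and 3 lower (12.4% and 17.6% of all genes), Lrp1 among the latter (-1.81, SE 0.51, adjusted p = 0.00366). Between sorted and bulk iMPCs 8 of the 14 were lower and none higher (20.5% and 9.88% of all genes).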

How the data were processed

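Strand-specific poly(A) RNA-seq libraries (100 bases, single end, per the labels' protocols) were analysed from 45 samples in 15 groups of 3. The authors deposited estimated counts and TPM per transcript. Per the submitters' processing notes, bcl2fastq 2.19, Trimmomatic 0.36, kallisto 0.44, edgeR 3.28 and build GRCm38.p6 were used, and the transcript release and settings are not given in the sources used here. In the deposited files, effective lengths fell short of transcript lengths by a median that corresponds to fragments of 152.81 bases in the 39 unsorted and 180.03 bases in the 6 sorted libraries, so the deposited TPM values and transcript shares of sorted libraries rest on another setting. Of 121843 transcripts, 121104 matched GENCODE M21 by identifier.

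For each gene the estimated counts of its transcripts were added up and rounded to whole numbers. All 45 libraries entered 1 fit in R 4.3.3 with edgeR 4.0.16 (TMM normalization, filterByExpr, quasi-likelihood F test, 30 residual degrees of freedom), with Benjamini-Hochberg adjustment over 17325 genes. A call needed an adjusted p under 0.05 and a log2 fold change of at least 1 in size. The steps were tested on simulated data. CPM values use TMM-adjusted library sizes, and log2 CPM for correlations a prior count of 2. Intervals and low counts cover counting error only.

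The members and the companion lists were chosen with earlier results of these data known. All 10 members are described in every group. From each companion list, up to 2 called genes in each direction with the largest change among those with a mean of at least 1 CPM were eligible to be named, and for each member the 3 genes with the highest correlation. The test of whether sorting had unequal effects, with each of its libraries left out in turn, and exon shares from TPM, were added after seeing the data. Alternatives were RLE size factors, no filter, DESeq2 1.42.0, only the groups compared, the replicate number as a block, no minimum change, log2(TPM + 1) with limma 3.58.1, and leaving out each library.

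Same-numbered libraries deviated together (every correlation over 0.1) between days 2 and 10 of MyoD alone (0.201, 0.416 and 0.271) and between the arms on days 2, 4 and 6 (0.223 to 0.375), but not in the other comparisons. Whether a number marks a shared culture is not given in the sources used here.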

Additional observations from a re-analysis of the deposited data

Results flagged for a closer look

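Whether sorting had unequal effects in iMPCs and myoblasts was tested directly (edgeR interaction, adjusted over all genes), after seeing the data. Of the 10 genes 4 had an adjusted p under 0.05, a share near that of all 17325 genes (32.9%), so the count says nothing particular about these genes. For Tnc the sorted minus bulk change was 3.92 higher in iMPCs than in myoblasts on the log2 scale (SE 0.83, adjusted p = 0.000553). For Thbs2 the difference was -6.01 (SE 0.95, adjusted p = 2.59e-05). Both passed with any 1 of the 12 libraries left out, Thbs2 with values from -7.11 without sorted iMPC replicate 1 to -5.21 without bulk iMPC replicate 1.

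For Fbln2 the difference was -4.11 (SE 1.2, adjusted p = 0.00859), but it rested on sorted myoblast replicate 2, without which it was -0.96 (adjusted p = 0.508). For Fbln5 it was -3.75 (SE 1.32, adjusted p = 0.028), and it did not pass without sorted iMPC replicate 2 or 3, bulk myoblast replicate 3, sorted myoblast replicate 2 or bulk iMPC replicate 2 (-2.36, adjusted p = 0.172). Fn1 (1.89, SE 0.98, adjusted p = 0.136) did not pass and did so without sorted myoblast replicate 2 (3.11, adjusted p = 0.0181), Sparc passed without sorted myoblast replicate 3 and Thbs1 without sorted iMPC replicate 2.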

How the results depend on the processing

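When the fit held only the groups compared, the number of these genes called was 7 in place of 1 for F/R/C day 2 against MEFs, 4 in place of 7 for bulk iMPCs against bulk myoblasts, 4 in place of 7 for sorted iMPCs against sorted myoblasts and 0 in place of 1 for sorted against bulk myoblasts. DESeq2 and TPM with limma each gave 2 in place of 1 for F/R/C day 2 against MEFs and 2 in place of 1 for sorted against bulk myoblasts. With the replicate number as a block, F/R/C day 2 against MEFs gave 4 calls and MyoD alone on day 10 against MEFs gave 1, where the libraries share only a number. Where the numbers pair libraries, between days 2 and 10 of MyoD alone, the block gave 0 calls, as without it. Leaving out 1 library gave 1 call in place of 2 for MyoD alone on day 2 against MEFs, 0 to 1 for MyoD alone on day 10 against MEFs, 2 to 5 for F/R/C day 10 against day 2, 0 to 1 for bulk iMPCs against F/R/C day 10, 4 to 7 for sorted iMPCs against sorted myoblasts and 1 to 3 for sorted against bulk myoblasts. The 6 calls of F/R/C day 10 against MEFs were 6 with each library left out. Fbln2 in sorted iMPCs against sorted myoblasts changed sign without sorted myoblast replicate 2 (2.58 in place of -0.57) and ranged from -1.11 to 2.58 over single libraries left out. The cause of these changes was not tested. Between the arms, day 10 values of Eln (3.45) and Thbs2 (-0.54) moved without replicate 3 of MyoD alone. RLE size factors and the absence of a minimum change moved no count of calls past 1.5 times. Few reads limit Eln, Postn, Fbln5 and Thbs2 in sorted cells and myoblasts.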
